A study of Mus musculus with 30 samples.

Results

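Activated satellite cells (ASCs) taken 84 h after muscle injury were compared between 2 ways of sorting them, with 3 arrays for each sort and so 6 of the 30 arrays of the series. The arrays were chosen by their titles, which give the time, the sort and the age class. VCAM cells came from C57BL6 wildtype mice and were selected as VCAM+, CD31-, CD45- and Sca1-. YFP cells came from Pax7CreER/+;ROSA26eYFP/+ mice injected with tamoxifen, and their label gives YFP as the only sorting marker. In these mice the Pax7 locus drives a Cre that tamoxifen switches on, so YFP marks cells that used Pax7 at the time of injection, and their descendants. Both groups were sorted from hindlimb muscle of mice aged 2 to 3 months after an injection of barium chloride (BaCl2). Sort, genotype and tamoxifen changed together between the groups and cannot be told apart. Uninjured muscle (quiescent satellite cells, QSCs) and muscle 36 h and 60 h after injury were sorted both ways as well, and those arrays serve here as a second look at the sorts. The contrast there is not the same, since all 4 measured sex-linked genes were called between the sorts at each of those times and none at 84 h. The question behind the comparison is how closely cells isolated by surface markers match cells isolated by a genetic label.

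Satellite cells are the stem cells of skeletal muscle. They lie between the muscle fibre and its basal lamina, express the transcription factor Pax7, and after injury they divide as myoblasts that use Myf5 and Myod1, then switch on Myog and the genes of the contractile apparatus. Injured muscle also fills with macrophages, which clear debris, and with fibroblasts and fibro-adipogenic progenitors, which lay down matrix. Tenocytes are the cells of tendon. Marker genes of these cell types were therefore measured beside those of satellite cells.

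Levels were log2 RMA values of 19938 genes, a scale on which a difference of 1 is a doubling. All differences are given as VCAM minus YFP, so that a negative value means a higher level in YFP cells. The 6 arrays had medians of 7.05 to 7.08. Over genes, which are not independent of each other, arrays of one sort correlated at 0.9973 to 0.9978 and arrays of different sorts at 0.993 to 0.994. A gene was called where limma gave a Benjamini-Hochberg adjusted p under 0.05 and the fold was at least 1.5. At 84 h 331 genes (1.66%) were called, 89 higher in VCAM cells (0.446%) and 242 lower (1.21%), and the median difference over all genes was 0.028. Of the called genes 65 differed at least 2-fold, 24 of them higher and 41 lower. Calls were made on these same arrays, so a separation of the arrays of called genes largely follows from the call. The 3 arrays of one sort lay wholly above or below those of the other for 330 of the 331 called genes, while this was so for 38.2% of all genes. The exception was the lysozyme gene Lyz1, singled out after its values were seen, at -0.59 with all arrays, -0.33 without VCAM array 3 and -0.30 without YFP array 2, where it was no longer called. Nothing in the labels tells if each array of a group stems from its own animal, so p-values measure the spread between these arrays, which may be technical.

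**Figure D1:**
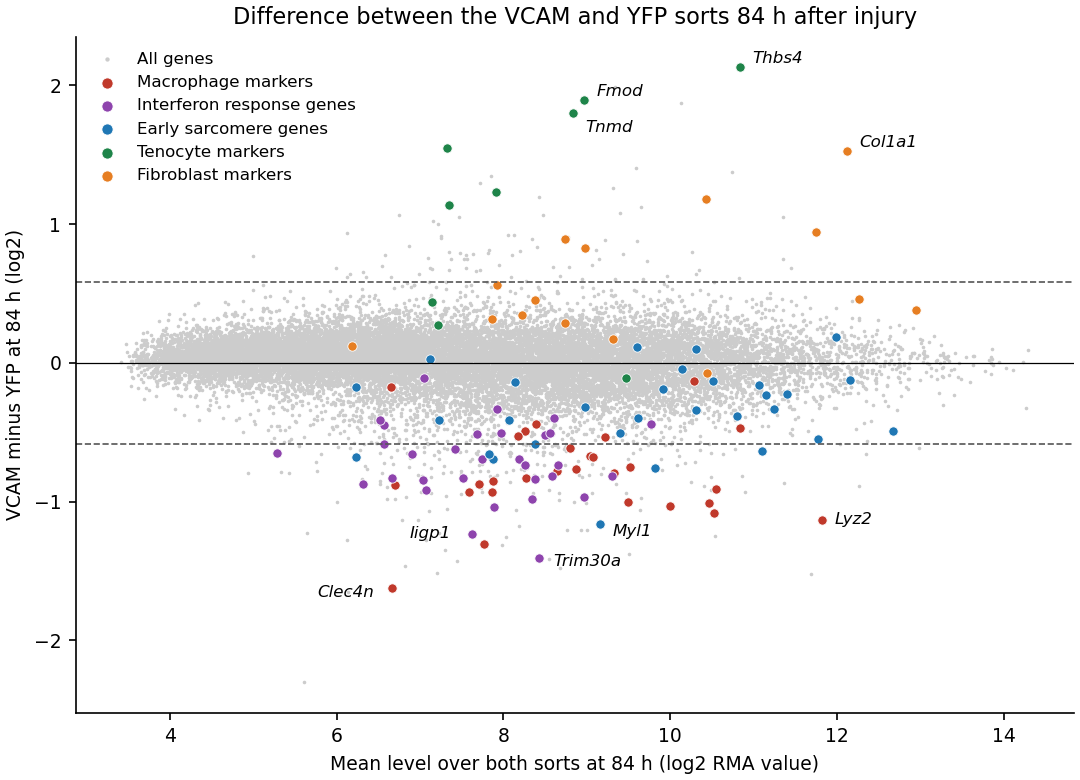
Each point is a gene, placed by its mean log2 level over both sorts at 84 h (horizontal) and by its VCAM minus YFP difference in log2 units (vertical). Dashed lines mark the fold of 1.5, grey points are all 19938 genes and coloured points are members of 5 marker or pathway lists. Tenocyte and fibroblast markers lie mostly above 0, with Thbs4 at 2.13, and macrophage markers and interferon response genes lie below 0, with Clec4n at -1.63 and Trim30a at -1.40.

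The genes that define the sort and the myogenic state were for the most part close between the sorts at 84 h. Pax7 read 9.66, 9.71 and 9.80 on the VCAM arrays and 9.72, 9.59 and 9.70 on the YFP arrays, a difference of 0.05 with a 95% interval of -0.08 to 0.18. The arrays of both sorts overlapped. Vcam1, which encodes the surface protein of the VCAM sort, was at 12.17 ± 0.01 in VCAM cells and 12.30 ± 0.03 in YFP cells (SD, n = 3), which were not selected on it. The difference of -0.13 (adjusted p = 0.015 in limma) was far under the fold of 1.5. Pecam1, which encodes CD31, differed by -0.25, and its arrays did not overlap. Ptprc, which encodes the leukocyte antigen CD45 that the VCAM sort excluded, was the 1 gene called among 4 measured sort and label genes. It read 8.53, 8.48 and 8.44 on the VCAM arrays and 9.54, 9.39 and 9.54 on the YFP arrays. All 3 YFP arrays were higher, by 1.01 on the log2 scale (SE 0.07, adjusted p = 1e-10 in limma), or 2.01-fold. QSCs of both sorts stood at 6.24, below either sort at 84 h.

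Of 11 myogenic transcription factors 1 was called. Myf5, the factor that marks commitment to the myoblast fate, read 10.15, 10.03 and 10.05 in VCAM cells and 10.96, 10.99 and 10.97 in YFP cells. It was lower in VCAM cells on every array, by -0.90 (SE 0.06, adjusted p = 1.4e-11). Myod1, the master regulator of myoblasts, went the other way, from 12.06, 11.99 and 12.06 in VCAM cells to 11.70, 11.68 and 11.73 in YFP cells. Its difference of 0.33 passed the adjusted p (1.1e-06) but not the fold, and its arrays did not overlap. Myog, which drives differentiation, differed by -0.08 with a 95% interval of -0.21 to 0.06. The other members lay between -0.36 for Msc and 0.17 for Pax3, with Mef2c at -0.35, Mef2a at -0.06, Mef2d at 0.08, Six4 at -0.08 and Myf6 at 0.03. Among 19 satellite cell surface and quiescence markers the chemokine receptor gene Cxcr4 alone was called, at -0.59, just past the fold of 1.5. Without VCAM array 3 (-0.57), YFP array 1 or YFP array 3 (-0.58 each) it missed that fold. The other 18 lay between that value and 0.38 for Meg3, a noncoding RNA of an imprinted locus, and the median of the list was 0.05. Of the 19 genes 11 had an unadjusted p under 0.05 and 9 an adjusted one, at folds under 1.5 but for Cxcr4. M-cadherin (Cdh15) stood at 0.05, the integrin gene Itga7 at 0.13 and the calcitonin receptor gene Calcr at 0.16.

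**Figure D2:**
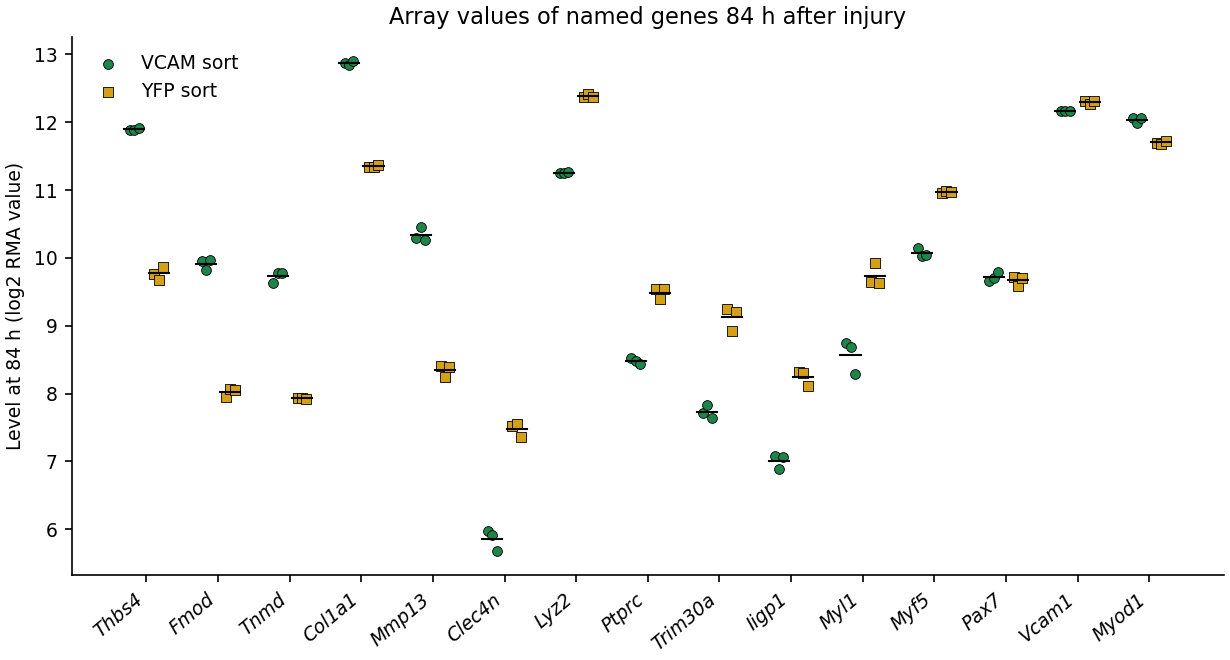
Log2 RMA values at 84 h of 15 genes named in the text, with a circle for each of the 3 VCAM arrays, a square for each of the 3 YFP arrays and a bar at the mean of each sort. For every gene shown but Pax7 the arrays of the sorts do not overlap, as for 38.2% of all genes. Genes named for the largest differences were taken only without overlap, so for those it was set by the choice. Vcam1 and Myod1 differ by less than the fold of 1.5.

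Macrophage genes were lower in VCAM cells at 84 h. Of 28 monocyte and macrophage markers 21 were called lower in VCAM cells and none higher, against 1.21% and 0.446% of all genes. All 28 differences were negative, and their median was -0.81 against 0.028 over all genes. Lyz2, which encodes the lysozyme of myeloid cells, read 11.25, 11.25 and 11.26 on the VCAM arrays and 12.38, 12.42 and 12.37 on the YFP arrays. The YFP arrays were higher by 1.13 on the log2 scale (SE 0.08, adjusted p = 8.3e-11), a 2.19-fold excess at a level among the highest of the list. Clec4n, which encodes the fungal sugar receptor dectin-2, read 5.97, 5.91 and 5.68 in VCAM cells and 7.52, 7.55 and 7.36 in YFP cells. Its difference of -1.63 (SE 0.10, adjusted p = 6.4e-12) led the list. Ms4a7 followed at -1.30, then the perforin-like gene Mpeg1 at -1.09, Ly86 at -1.03, the NADPH oxidase subunit gene Cybb at -1.01, the inhibitory receptor gene Lilrb4a at -1.0, the Fc receptor gene Fcgr3 and the scavenger receptor gene Msr1 both at -0.93, and the monocyte chemokine receptor gene Ccr2 at -0.88. The complement genes C1qa, C1qb and C1qc, made by tissue macrophages, differed by -0.77, -0.80 and -0.61, and Adgre1, an adhesion receptor gene used as a pan-macrophage marker, by -0.67. C1qc fell short of the fold without VCAM array 1 (-0.57) or YFP array 3 (-0.55). Among the 7 members that were not called, Cd68 stood at -0.47, Csf1r at -0.53, Aif1 at -0.17 and Laptm5 at -0.13.

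The level of the macrophage list was not low in either sort at 84 h. Its mean over the 28 genes was 8.45 to 8.50 on the VCAM arrays and 9.26 to 9.27 on the YFP arrays, against 6.13 to 6.24 in QSCs of both sorts. At 60 h the sorts differed the same way, with 16 of 28 lower in VCAM cells (0.757% of all genes were) and a median of -0.71. At 36 h, when both sorts carried the highest level (9.54 to 9.64 in VCAM and 9.29 to 9.31 in YFP cells), 9 members were higher in VCAM cells and 1 lower, with a median of 0.26. Over all genes 2.78% were called higher at 36 h and 2.49% lower. In QSCs no member was called and the median was -0.01. In bulk RNA the number of macrophages, the macrophage RNA per cell and expression of these genes by the myogenic cells themselves cannot be told apart. The same holds for every cell type named below. Neutrophil markers did not move with macrophage markers, with 0 of 14 called by limma (1 at an unadjusted p under 0.05), a median of 0.00 and Ngp at 0.24, nor did lymphocyte markers, with 0 of 12 called (1 at an unadjusted p under 0.05), a median of -0.01 and Cd3e at 0.31. Their mean levels, 5.76 to 5.87 and 5.53 to 5.67 over all 6 arrays, were under the array medians. Endothelial markers had 0 of 16 called by limma, 9 at an unadjusted p under 0.05 and 8 at an adjusted one. Their median was -0.10, with Emcn at -0.45.

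Other genes of myeloid cells stood among the lowest differences. Chil3, which encodes a chitinase-like protein of activated macrophages, read 5.18, 5.59 and 5.16 in VCAM cells and 7.11, 6.82 and 6.96 in YFP cells, a difference of -1.65 (SE 0.17, adjusted p = 5.5e-08). Tlr7, the endosomal receptor of single-stranded RNA, read 5.72, 6.18 and 6.36 in VCAM cells and 7.64, 7.70 and 7.31 in YFP cells, a difference of -1.46 (SE 0.14). The largest differences were named only from genes whose arrays did not overlap between the sorts, so the separation of these 2 genes was set by the choice. Further genes, named after their values were seen, were Gpr65 at -1.35, Rgs1 at -1.32, Cytip at -1.27, the sialic acid lyase gene Npl at -1.21, Apobec1 and the lipoprotein-associated phospholipase gene Pla2g7 both at -1.20, Cd48 at -1.13, the fatty acid transporter gene Cd36 at -0.92 and the apolipoprotein gene Apoe at -0.89. All were called.

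The Ms4a genes encode proteins that cross the cell membrane several times, and lie side by side on chromosome 19. The family was taken up after its values were seen, so its counts are a description. Of 19 measured members 6 were called, all lower in VCAM cells, and these 6 lie between positions 11321039 and 11604804 of chromosome 19 (GRCm38.p6). Ms4a4c read 6.39, 6.49 and 6.47 in VCAM cells and 8.0, 8.23 and 7.67 in YFP cells (difference -1.52). Ms4a6b differed by -1.48, Ms4a6d by -1.41, Ms4a6c by -1.38, Ms4a7 by -1.30 and Ms4a4a by -1.25. The B cell member Ms4a1 (CD20) differed by -0.08, and the 13 members that were not called lay between -0.21 and 0.23. Probes of such closely related genes can share signal, so the value of a single member is uncertain.

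Interferon response genes were a second group lower in VCAM cells at 84 h. Of 31 measured genes 20 were called lower in VCAM cells and none higher, against 1.21% and 0.446% of all genes. All 31 differences were negative and the median was -0.70. At 60 h 1 member was higher and none lower, with a median of -0.03, and at 36 h and in QSCs none was called. The difference between the 84 h and the 60 h contrast was itself called for 18 of the 31, all negative, where 0.838% of all genes were called in that direction and 0.441% in the other. Sex-linked genes were also called between the sorts at 60 h and not at 84 h, and the part of sex in this change was not tested. The mean of the list was 7.36 to 7.42 on the VCAM arrays at 84 h and 8.08 to 8.14 on the YFP arrays. At 60 h it had been 6.71 to 6.74 and 6.77 to 6.79. The list mean in YFP cells at 84 h was thus above all other young groups, whose arrays reached 7.72 at most.

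Trim30a, an interferon-induced ubiquitin ligase, led the list. It read 7.71, 7.83 and 7.64 on the VCAM arrays and 9.25, 8.93 and 9.20 on the YFP arrays. Its difference was -1.40 (SE 0.11, adjusted p = 5.7e-10), or 2.65-fold, against -0.47 at 60 h. Iigp1, a GTPase that attacks the vacuoles of intracellular parasites, read 7.08, 6.89 and 7.06 in VCAM cells and 8.32, 8.30 and 8.11 in YFP cells. Its difference of -1.23 (SE 0.09) stood against 0.63 at 60 h, when VCAM cells had the higher level, and the change between the contrasts was -1.87 (adjusted p = 1.3e-10). Ifit1, which binds viral RNA that lacks the host cap, read 7.28, 7.39 and 7.41 in VCAM cells and 8.43, 8.34 and 8.43 in YFP cells, a difference of -1.04 (SE 0.12) against -0.08 at 60 h. The same held for the chaperone gene Rtp4 (-0.98 at 84 h, 0.20 at 60 h), for Oasl2 (-0.96, 0.08) and for Usp18, the brake on the type I interferon receptor (-0.91, -0.08). The antiviral genes Mx2 and Mx1 differed by -0.88 and -0.65, Ifit3 by -0.84, the transcription factor gene Irf7 by -0.84, Xaf1 by -0.83 and the RNA sensor gene Ifih1 by -0.70 at 84 h, and at 60 h these 6 genes lay between -0.06 and 0.09. Without YFP array 1, Mx1 stood at -0.58 and missed the fold. Rsad2 (viperin) at -0.50 and Oas1a at -0.11 were among the 11 that were not called. Ddx60, a helicase of antiviral sensing outside the list, read 6.60, 6.74 and 6.83 in VCAM cells and 8.21, 8.19 and 8.07 in YFP cells, which was -1.43 at 84 h and 0.02 at 60 h.

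Macrophage markers were lower in VCAM cells at both 60 h and 84 h, while interferon response genes were lower at 84 h. Whether macrophage RNA carried the interferon difference was not tested. MHC class I presentation genes, which interferons also raise, had 0 of 9 called by limma. An unadjusted p under 0.05 was reached by 7 and an adjusted one by 7. Their median was -0.31, with H2-Q4 at -0.56 (-0.61 and called without VCAM array 2).

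The start regions of 3 called interferon genes are shown because interferon acts through a short element next to the start site. They were taken by the size of the difference among genes with a start region in the reference used. Iigp1 and Rtp4, with larger differences than Oasl2, had none there. The sequences are the 120 bases before the start in the RefSeq annotation (GRCm38.p6), on the strand of the gene, and capitals mark matches to GAAANNGAA, the core of the interferon-stimulated response element, on either strand. Trim30a is at chr7:104465194-104465313 (minus strand), Ifit1 at chr19:34640769-34640888 (plus strand) and Oasl2 at chr5:114896814-114896933 (plus strand).
Trim30a: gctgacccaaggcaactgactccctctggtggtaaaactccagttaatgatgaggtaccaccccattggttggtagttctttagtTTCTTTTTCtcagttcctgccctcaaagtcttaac
Ifit1: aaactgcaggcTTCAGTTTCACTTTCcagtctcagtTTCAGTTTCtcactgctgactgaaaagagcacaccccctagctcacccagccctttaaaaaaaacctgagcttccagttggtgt
Oasl2: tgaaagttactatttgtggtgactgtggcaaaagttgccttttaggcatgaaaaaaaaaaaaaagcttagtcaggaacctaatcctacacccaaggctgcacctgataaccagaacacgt
Trim30a held 1 match, 35 bases before its start. Ifit1 held 3, at 109, 103 and 84 bases before its start, and the first of these overlapped the next. Oasl2 held none in this window. Over windows from 250 bases before to 50 after the start, the motif occurred in 8.56% of 32851 windows of all genes, in 6 of the 11 called interferon genes that had a window and in 5 of the 10 uncalled ones. A match is a description of the letters and not evidence that a factor binds there.

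**Figure D3:**
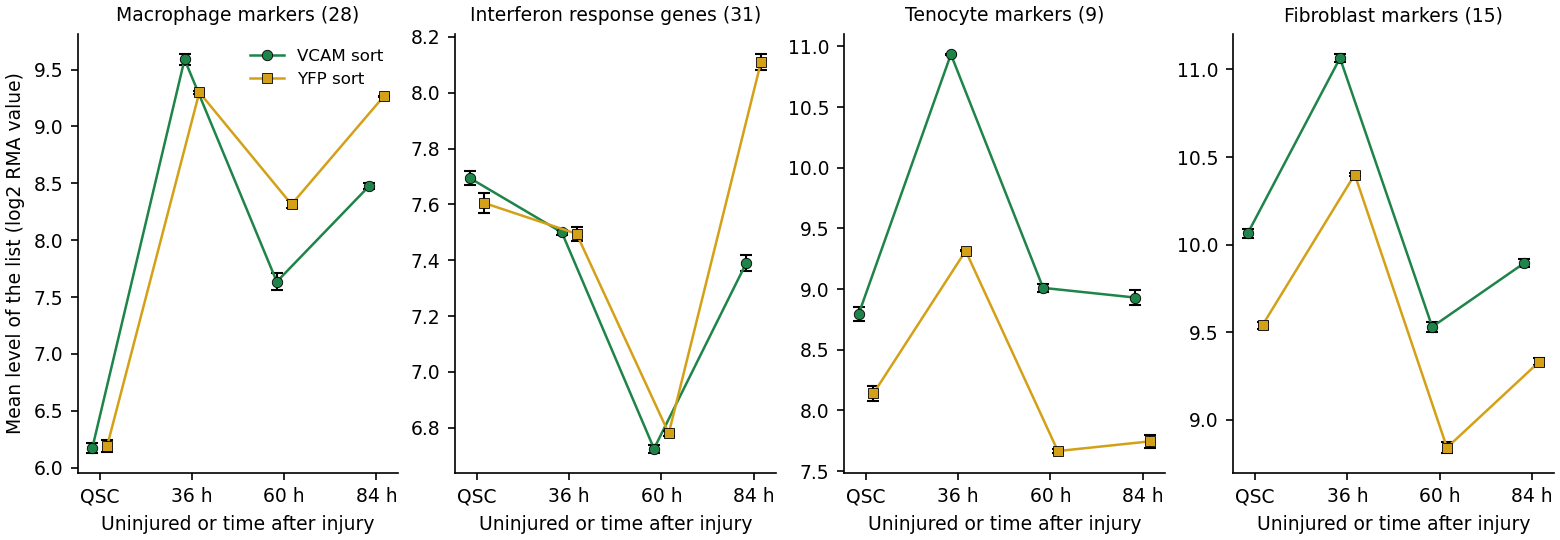
Mean log2 level of the members of 4 lists (number of genes in brackets) in young mice, by sort, in uninjured muscle and at 36, 60 and 84 h. Bars span the lowest to the highest of the 3 arrays and the marker is their midpoint. At 84 h the interferon list is at 7.36 to 7.42 in VCAM and 8.08 to 8.14 in YFP cells. The macrophage list is higher in VCAM cells at 36 h and lower at 60 h and 84 h, and tenocyte and fibroblast lists are higher in VCAM cells at every time.

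Several gene families that interferons or myeloid cells use were looked at after their values were seen, and their counts are a description. The Ifi200 family, DNA-binding proteins encoded side by side on chromosome 1, had 3 of 10 members called. Ifi202b had the most negative fitted difference, with 4.44, 4.42 and 4.54 on the VCAM arrays and 6.77, 6.59 and 6.94 on the YFP arrays. The difference was -2.30 (SE 0.13, adjusted p = 1.6e-12). The VCAM values were near the bottom of the scale and close to those of QSCs (4.13 in VCAM and 4.41 in YFP cells), so its size has no exact meaning as a fold. It was also called lower at 60 h (-1.41) and 36 h (-1.36), and stood at -0.28 in QSCs. Ifi209 (-1.28) and Ifi203 (-0.79) were the other members called. Interferon-inducible GTPases had 5 of 10 called, which besides Iigp1 were Gbp8 at -1.07, Gbp7 at -1.0, Irgm1 at -0.90 and Gbp3 at -0.74, and all 5 were also called in the change from 60 h. Toll-like receptors had 4 of 10 called, Tlr7, then Tlr13 at -1.18, Tlr8 at -0.85 and Tlr4, the endotoxin receptor, at -0.64. Schlafen genes had 4 of 7 called, Slfn4 at -0.98, Slfn2 at -0.92, Slfn8 at -0.80 and Slfn5 at -0.63. No member of these 4 families was called higher in VCAM cells.

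Inflammatory mediators changed in part. Of 31 chemokine and inflammatory genes 6 were called lower and none higher (1.21% and 0.446% of all genes), with a median of -0.20. Il1b, the cytokine of activated macrophages, read 7.28, 7.48 and 7.47 in VCAM cells and 8.72, 8.54 and 8.73 in YFP cells. It was lower in VCAM cells by -1.26 (SE 0.15, adjusted p = 7.4e-07), with no overlap, and was called lower at 60 h (-1.12) and 36 h (-1.40) too. The myeloid chemokine genes Ccl6 and Ccl9 both differed by -0.82. The B cell attractant gene Cxcl13 differed by -0.68, and by -0.55 without VCAM array 1, where it missed the fold. At 60 h Cxcl13 stood at 0.29, and it was called higher in VCAM cells at 36 h (4.13) and in QSCs (1.39). Of 7 genes of MHC class II presentation 3 were called lower, the lysosomal protease gene Ctss at -0.87, H2-Aa at -0.81 and H2-Ab1 at -0.61. H2-Ab1 missed the fold without VCAM array 1 or YFP array 2 (-0.56 each) and after a further quantile normalization (-0.57). The invariant chain gene Cd74 stood at -0.53.

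Genes of the contractile apparatus were lower in VCAM cells where they were called. Of 30 embryonic and early sarcomere genes 6 were called lower and none higher, against 1.21% and 0.446% of all genes. In this list 26 differences were negative and the median was -0.34. Myl1, the fast alkali light chain, read 8.75, 8.68 and 8.29 in VCAM cells and 9.65, 9.92 and 9.63 in YFP cells. The difference was -1.16 (SE 0.16, adjusted p = 4.8e-06), and it had been -0.31 at 60 h. The embryonic light chain gene Myl4 differed by -0.76, the perinatal myosin gene Myh8 by -0.69, the Z-disc genes Myoz2 and Actn2 by -0.68 and -0.66, and the thin filament ruler nebulin (Neb) by -0.64. Without VCAM array 3 Actn2 stood at -0.55 and missed the fold. Embryonic myosin (Myh3) at -0.33, skeletal actin (Acta1) at -0.55, cardiac actin (Actc1) at -0.49 and titin (Ttn) at -0.12 were not called, although Acta1 was without YFP array 1 (-0.59). The change from the 60 h contrast was called for 3 members, Myl1 at -0.85, Myoz2 at -0.78 and Myh8 at -0.65. The list rose in both sorts between 60 h and 84 h, from 8.01 to 8.03 on the VCAM arrays and 8.21 to 8.26 on the YFP arrays, to 9.49 to 9.51 and 9.82 to 9.87. That rise was not tested here. Smpx, a costamere gene outside the lists that was named after its values were seen, read 4.99, 5.30 and 4.80 in VCAM cells and 6.33, 6.05 and 6.40 in YFP cells (-1.23). It stood between 4.76 and 4.85 in every earlier young group of either sort.

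Of 22 adult myofibre genes the calsequestrin gene Casq2 alone was called, at -0.65. Myoblast fusion genes had 0 of 18 called by limma, 7 at an unadjusted p under 0.05 and 3 at an adjusted one. Jam2 stood at -0.47 and the myomaker gene Mymk at 0.21.

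Connective tissue genes differed in the opposite direction. Of 9 tenocyte markers 6 were called higher in VCAM cells (0.446% of all genes were), with a median of 1.23. Thbs4, a thrombospondin of tendon (chr13:92751586-92794818), read 11.89, 11.89 and 11.92 on the VCAM arrays and 9.77, 9.68 and 9.87 on the YFP arrays. Its difference of 2.13 (SE 0.05, adjusted p = 7.5e-20) was the largest positive one of all genes, 4.37-fold. The collagen-binding proteoglycan gene Fmod read 9.96, 9.82 and 9.97 in VCAM cells and 7.95, 8.07 and 8.06 in YFP cells (1.89, SE 0.06). Tenomodulin (Tnmd), the classical marker of mature tenocytes, read 9.63, 9.78 and 9.78 in VCAM cells and 7.93, 7.94 and 7.92 in YFP cells (1.80, SE 0.05). For these 3 genes every VCAM array lay above every YFP array by more than 1 log2 unit. They were named from genes whose arrays did not overlap between the sorts, so their separation was set by the choice.

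Kera read 8.05, 8.10 and 8.15 in VCAM cells and 6.54, 6.53 and 6.57 in YFP cells (1.55), Angptl7 differed by 1.23 and the cartilage matrix gene Comp by 1.14. The transcription factor genes of the lineage did not pass, with Scx at -0.11 and Mkx at 0.44. The mean of the list was 8.87 to 8.99 on the VCAM arrays and 7.69 to 7.80 on the YFP arrays. Tenocyte markers were higher in VCAM cells at the other times too, with 6 of 9 called at 60 h (median 1.60), 8 at 36 h (1.92) and 4 in QSCs (0.55). Over all genes 0.557% were called higher at 60 h, 2.78% at 36 h and 1.74% in QSCs.

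Of 15 fibroblast and fibro-adipogenic progenitor markers 5 were called higher and none lower (0.446% and 1.21% of all genes), with a median of 0.46. Col1a1, the main chain of type I collagen, read 12.87, 12.85 and 12.90 in VCAM cells and 11.34, 11.34 and 11.37 in YFP cells. The difference of 1.53 (SE 0.04, adjusted p = 7.5e-20) was 2.88-fold at one of the highest levels on the array. Col6a3 differed by 1.18, decorin (Dcn) by 0.94, lumican (Lum) by 0.89 and Pdgfra, the receptor that marks fibro-adipogenic progenitors, by 0.83. Smoc2 at 0.56, Thy1 and Col3a1 both at 0.46 were not called, although Smoc2 was without YFP array 3 (0.59). The mean of the list was 9.87 to 9.92 on the VCAM arrays and 9.31 to 9.35 on the YFP arrays. Of 14 pericyte and smooth muscle markers Pdgfrb alone was called (0.88), and the median of that list was 0.04. The part of connective tissue cells in these differences was not tested.

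Of 33 extracellular matrix genes 5 were called higher and 1 lower, against 0.446% and 1.21% of all genes. The laminin chain gene Lama4 differed by 1.19, Thbs2 by 1.08, the gelatinase gene Mmp2 by 0.87, Bgn by 0.68 and Col12a1 by 0.62. Timp3, an inhibitor of matrix proteases, was the 1 called lower, with 9.44, 9.57 and 9.54 in VCAM cells and 10.33, 10.30 and 10.25 in YFP cells (-0.78). Fibronectin (Fn1) at 0.47 and periostin (Postn) at 0.23 were not called. Mmp13, a collagenase outside the list, read 10.29, 10.45 and 10.26 in VCAM cells and 8.40, 8.24 and 8.39 in YFP cells. It was higher by 1.99 (SE 0.10, adjusted p = 9e-14), or 3.97-fold. This was the second largest positive difference.

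Small leucine-rich proteoglycans, which bind collagen and were taken up as a family after their values were seen, had 9 of 15 members called higher and none lower, with a median of 0.75. Besides Fmod, Kera, Dcn, Lum and Bgn these were Aspn at 1.38, Ecm2 at 0.79, and Prelp and Chad at 0.75 each. Ogn, also of this family, differed by -0.15 at 84 h although it was higher in VCAM cells at 60 h (1.49) and 36 h (1.09). The Wnt inhibitor gene Sfrp2 read 10.33, 10.28 and 10.28 in VCAM cells and 8.96, 8.89 and 8.83 in YFP cells (1.40, SE 0.08). Bmp5 read 8.59, 8.60 and 8.37 in VCAM cells and 7.30, 7.05 and 7.17 in YFP cells (1.35, SE 0.09). Bmp2 differed by 0.81 and was the 1 member called of 28 FGF, BMP and TGF-beta signalling genes. Genes named after their values were seen were Cpxm2 at 1.30, the joint lubricant gene Prg4 at 1.26, Cilp at 1.12, the lysyl oxidase gene Loxl3 at 1.06, the transcription factor gene Ebf1 at 0.92 and Cthrc1 at 0.81.

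Genes of the cell cycle and of general cell function had no member called by limma at 84 h. Some passed an unadjusted p under 0.05, and many of these an adjusted one, at folds under 1.5. DNA replication genes had 0 of 39 called, 19 at that unadjusted p and 14 at an adjusted one. Their median was 0.12 and the largest value that of the cyclin gene Ccne1 (0.55). Mitosis genes had 0 of 33 called, 9 at the unadjusted and 6 at the adjusted p, with a median of 0.06 and Aurka at 0.40. Inhibitors of cyclin-dependent kinases had 0 of 6 called and 1 at either p, Cdkn1b at -0.20, whose sign changed with the mean of its 2 probe sets. Ribosome biogenesis genes had 0 of 27 called, 19 at the unadjusted and 15 at the adjusted p, with 26 positive differences, a median of 0.16 and Rrp9 at 0.53. Immediate early genes, which respond to tissue handling among other stimuli, had 0 of 26 called, 17 at the unadjusted and 15 at the adjusted p. Their median was -0.16, with Fos at -0.52.

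The remaining lists without a call were as follows. Each has the number of members at an unadjusted p under 0.05 by limma, and then the number at an adjusted p under 0.05. Of 21 Notch pathway genes, which hold satellite cells in quiescence, 8 and 6 passed, with the ligand gene Dll1 at 0.25. Of 17 genes of the IGF axis and imprinted growth control 8 and 7 passed, with Meg3 at 0.38. Of 11 heat shock genes 5 and 5 passed, with Hspb1 at -0.43. In metabolism 12 and 7 of 41 genes of the respiratory chain and ATP synthase passed (Ndufv2 at -0.37). For glycolysis and glycogen it was 8 and 5 of 20 (Pygm at -0.31), and for cholesterol synthesis 6 and 4 of 17 (Srebf2 at 0.21). In translation 7 and 5 of 26 cytosolic ribosomal protein genes passed (Rpl26 at -0.21). In chromatin it was 7 and 5 of 17 replication-dependent histone genes (H2bc3 at -0.38) and 5 and 4 of 13 H3K27 methylation enzymes (Ezh1 at -0.28). Of 8 Schwann cell markers 4 and 1 passed, with Pmp22 at -0.28, and of 2 erythroid markers none by either p, with Alas2 at 0.12. A value short of the call does not show that the sorts were equal. By the adjusted p alone, with no fold threshold, 4119 genes passed at 84 h, 1969 higher and 2150 lower.

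A few probe sets that can read more than 1 gene copy also stood among the largest differences. Usp17ld, a member of a multi-copy deubiquitinase family, read 11.17, 11.02 and 11.01 in VCAM cells and 9.11, 9.36 and 9.13 in YFP cells (1.87). The 5S ribosomal RNA probe set n-R5s136 read 10.94, 10.99 and 10.84 in VCAM cells and 12.56, 12.53 and 12.24 in YFP cells (-1.52). AY036118 differed by 1.05. Their direction was not stable over time, since Usp17ld stood at -0.63 at 60 h and 4.31 at 36 h, and n-R5s136 at 1.30 at 60 h and -2.90 at 36 h. Such probe sets cannot be tied to a single locus, and the part of RNA preparation in them was not tested. The microRNA gene Mir199a-1, which is not of this group, differed by 1.00.

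Few genes that can mark genetic background were measured. None of 6 genes with known null or copy-number alleles in laboratory strains was called by limma and 5 had an unadjusted p under 0.05, with Nnt at -0.55, Wdfy1 at -0.48, H2-Ea at -0.34, Glo1 at -0.23, Ide at 0.14 and Gbp2b at -0.05. Outside that list Ifi202b, described above among the Ifi200 genes and known to vary in expression between mouse strains, was at 4.46 in VCAM and 6.77 in YFP cells. It was named for the size of its 84 h difference, and its smaller differences at the other times are given above. The part of genetic background in the differences cannot be told apart from that of the sort. None of 4 sex-linked genes reached that fold at 84 h. By limma 3 had an unadjusted p under 0.05, and 3 also an adjusted one. Kdm5d and Uty stood at -0.36 each, Eif2s3y at -0.24 and Xist at -0.06. Xist, the RNA of the inactive X chromosome, was at 5.06 ± 0.13 in VCAM and 5.12 ± 0.09 in YFP cells at 84 h (SD, n = 3). At the other times the sorts parted in these genes. Xist was at 5.25 to 5.34 in VCAM cells and 10.68 to 11.39 in YFP cells in QSCs, at 36 h and at 60 h, and the 3 Y-linked genes were called higher in VCAM cells each time. Contrasts between 84 h and the other times contain that difference as well.

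The genes called at 84 h were set beside the calls at the other times, which use separate arrays. At those times sex-linked genes were called between the sorts, unlike at 84 h. Of the 89 genes called higher at 84 h, 55 (61.8%) were among the 111 called higher at 60 h (49.5% of those), where the background was 0.557%, and 2 were called lower there. At 36 h 69 of them (77.5%) were among 554 (12.5% of those, background 2.78%) and 1 was called lower, and in QSCs 24 (27%) were among 346 (6.94%, background 1.74%) and 2 were called lower. Their median difference was 0.69 at 60 h, 1.05 at 36 h and 0.33 in QSCs. Of the 242 called lower at 84 h, 85 (35.1%) were among the 151 called lower at 60 h (56.3% of those, background 0.757%), and 2 were called higher there. At 36 h 43 (17.8%) were among 496 called lower (8.67% of those, background 2.49%) and 19 were called higher. In QSCs 14 (5.79%) were among 362 called lower (3.87% of those, background 1.82%), and as many, 14, were called higher. Their median difference was -0.41 at 60 h, -0.10 at 36 h and -0.01 in QSCs. At 84 h alone 14 of the genes called higher (15.7%) and 128 of those called lower (52.9%) were called in their direction, and these shares were not tested against each other.

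Genes called higher in VCAM cells at all 4 times numbered 21, and 0 were called lower by limma at all 4. By an unadjusted p under 0.05 without the fold, 155 were higher and 168 lower at all 4. The 6 of the 21 whose smallest difference was largest follow. Kera went from 1.95 in QSCs to 2.42 at 36 h, 2.39 at 60 h and 1.55 at 84 h. Col1a1 held 1.49, 1.14, 1.43 and 1.53 at these times, and Aspn 1.72, 1.79, 2.10 and 1.38. Bmp5 was at 1.56, 2.65, 1.71 and 1.35, Col6a3 at 1.40, 1.5, 1.73 and 1.18, and Tnmd at 1.32, 1.92, 2.14 and 1.80. Over all 19938 genes the 84 h differences correlated with those at 60 h at 0.36, with those at 36 h at 0.31 and with those in QSCs at 0.05 by Pearson, a description across genes. By Spearman these were 0.14, 0.26 and 0.02, so that the order of 60 h and 36 h turned round.

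**Figure D4:**
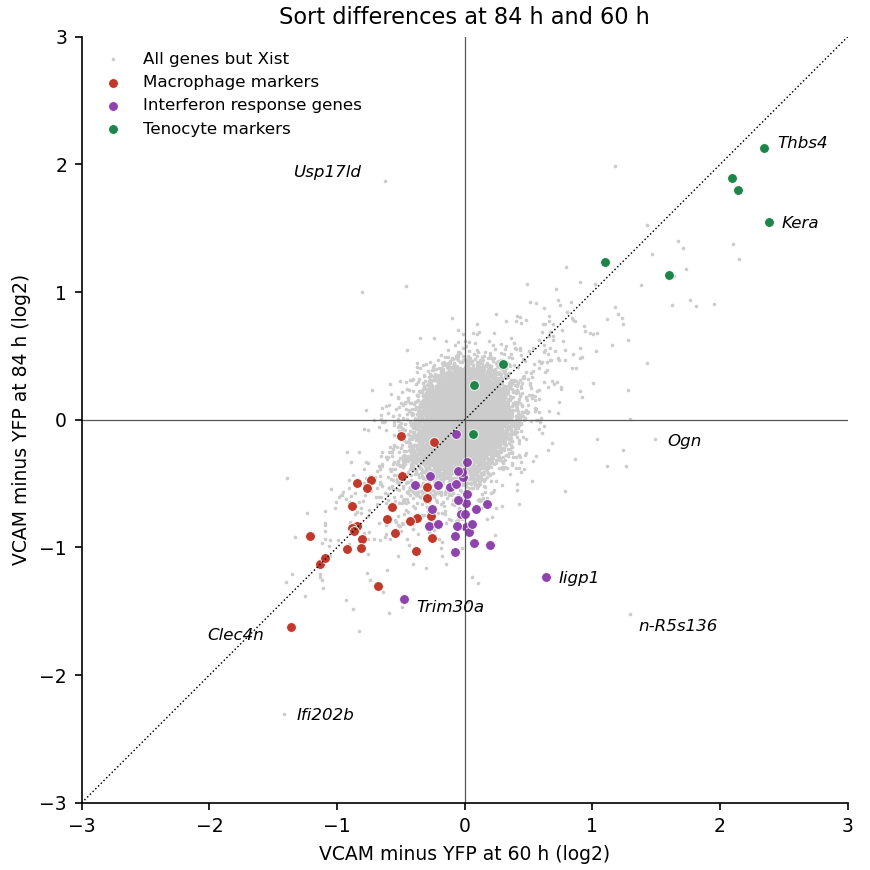
VCAM minus YFP differences in log2 units at 60 h (horizontal) and 84 h (vertical) for all genes but Xist, which was left out because its 60 h value of -5.38 lies off the axis. The dotted line marks equal differences. Tenocyte markers lie near it but for some below, such as Kera (a change of -0.84) and Comp (-0.46). Macrophage markers lie on both sides of it, from Fcgr3 (-0.67) to Laptm5 (0.37), and most interferon response genes lie near 0 at 60 h and below 0 at 84 h.

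The change of the sort difference from 60 h to 84 h was called for 255 genes, 88 positive (0.441% of all genes) and 167 negative (0.838%). It was called in their direction for 16 of the 89 genes higher at 84 h and for 71 of the 242 lower ones. The 84 h difference that chose these genes is a term of the change, so both counts are raised by the choice. The largest negative changes were those of n-R5s136 (-2.82), Iigp1 (-1.87), Ogn (-1.65) and Kdm5d (-1.63), and the largest positive ones those of Xist (5.32), Usp17ld (2.50), Mir199a-1 (1.81) and AY036118 (1.51). Of these 8, Iigp1 and Ogn are the protein-coding genes that are neither sex-linked nor multi-copy. Matrix genes also moved, as Lum changed by -0.92, Kera by -0.84, Dcn by -0.82 and Aspn by -0.73, each still called higher at 84 h, while Mmp13 changed by 0.81. Among macrophage markers the change was called for 3 of 28, Fcgr3 at -0.67, Ly86 at -0.65 and Ms4a7 at -0.63.

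Against QSCs the sort difference changed for 1307 genes, 541 positive (2.71%) and 766 negative (3.84%). With each array centred on its median the split turned to 736 positive and 569 negative, since centring shifted all QSC differences by -0.06 and changed their calls from 346 higher and 362 lower to 268 and 495. Of the genes called lower at 84 h 189 (78.1%) were called in this change. The 84 h difference that chose these genes is a term of the change, so the share is raised by the choice. The largest positive changes were those of Xist (5.99), Akr1c14 (3.96), Tmem45a (3.62) and F630111L10Rik (3.49). For Akr1c14 and F630111L10Rik the 84 h difference was -0.15 and -0.22, and the difference in QSCs was -4.11 and -3.70. Tmem45a was higher in VCAM cells at 84 h (1.02) and lower in QSCs (-2.60). The largest negative changes were those of Casq2 (-2.47), Hpse (-2.20), Abcc9 (-2.09) and Cxcl13 (-2.06). Hpse, which encodes the enzyme that cuts heparan sulfate, was lower in VCAM cells at 84 h (-0.94) and higher in QSCs (1.27). Abcc9, a pericyte marker, stood at -0.32 at 84 h and 1.78 in QSCs.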

How the data were processed

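Affymetrix Mouse Gene 1.0 ST arrays were hybridised with 100 ng of total RNA from sorted cells, isolated with Trizol per the labels. The authors deposited log2 intensities computed by RMA (background correction, quantile normalization and a summary over probes) in Expression Console, whose version is not given in the sources read here. Values of all 30 arrays ran from 2.99 to 15.11 with array medians of 7.03 to 7.16, and no further scaling was applied. The number of arrays limits the precision.

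Of 35556 probe sets 21789 carried exactly 1 gene symbol in the platform annotation, 1621 several and 12146 none. Those with 1 symbol were tested, and for 999 genes with several such probe sets the brightest was used, which left 19938 genes. Entrez IDs of 21698 probe sets matched RefSeq (GRCm38.p6), the source of coordinates and promoter sequences.

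Means of 10 groups were fitted to all 30 arrays with limma 3.58.1 in R 4.3.3 (lmFit, eBayes, 20 residual degrees of freedom, two-sided). Calls needed a fold of at least 1.5 and a p under 0.05 after Benjamini-Hochberg adjustment. The script was tested on simulated data.

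Gene lists and comparisons were chosen with earlier results of these data known. Named genes were the 10 largest called differences in each direction without overlap of arrays, all sort, label, myogenic, sex-linked and strain-allele genes, up to 4 called members of each list (or its largest difference), 6 genes called at all 4 times, and the 4 largest changes in each direction against 60 h and QSCs. Members beyond the leading 4 of a list, gene families and other genes were named after their values were seen. List members with no probe set of their own were not analysed here. Alternatives were other arrays in the fit, call thresholds, scalings, a filter on dim genes, the mean of probe sets, an intensity trend, a replicate block and leaving out single arrays.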

Additional observations from a re-analysis of the deposited data

Results flagged for a closer look

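The sort difference changed between 84 h and 60 h for 255 genes and between 84 h and QSCs for 1307, each by a contrast of both differences in the limma fit over all genes (adjusted p under 0.05 and a change of at least 1.5-fold). The genes of the text among them follow, with each value the change of VCAM minus YFP in log2 units, 3 arrays a group. Groups of 3 arrays were not searched for single arrays that stand apart. The cause of these changes was not tested.

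Of the interferon list 18 of 31 genes had a called change against 60 h, all negative, where 0.838% of all genes had a called negative change. Among these and related families Iigp1 changed by -1.87, Ddx60 by -1.45, Ifi209 by -1.38, Rtp4 by -1.18, Irgm1 by -1.14, Oasl2 by -1.04, Gbp7 by -0.98, Ifit1 by -0.96, Trim30a by -0.93, Mx2 by -0.91, Ifi202b by -0.89, Gbp8 by -0.88, Ifit3 by -0.86, Irf7 by -0.85, Usp18 by -0.84, Ifih1 by -0.78, Xaf1 by -0.77, Gbp3 by -0.74 and Mx1 by -0.66. In the macrophage list the change was called for 3 of 28 members, Fcgr3 at -0.67, Ly86 at -0.65 and Ms4a7 at -0.63, while Laptm5 stood at 0.37 without a call. Single genes outside that list with a called change were Tlr7 and Cxcl13 at -0.97 each, Ms4a4c at -0.92, Chil3 at -0.83, Cd48 and Hpse at -0.73 each, Gpr65 at -0.71 and Ms4a6b at -0.61.

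Among matrix genes Ogn changed by -1.65, Postn by -1.05, Timp3 by -0.95, Lum by -0.92, Prg4 by -0.89, Kera by -0.84, Dcn by -0.82, Aspn by -0.73 and Col12a1 by -0.65, while Mmp13 changed by 0.81. Among muscle genes Smpx changed by -1.28, Myl1 by -0.85, Myoz2 by -0.78 and Myh8 by -0.65, and the respiratory chain gene Ndufv2 by -0.68.

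Sex-linked genes, which were called between the sorts at 60 h and not at 84 h, changed too, with Xist at 5.32, Kdm5d at -1.63, Eif2s3y at -1.48 and Uty at -1.47. Probe sets that can read several copies changed in both directions, with Usp17ld at 2.50, AY036118 at 1.51 and n-R5s136 at -2.82. The microRNA gene Mir199a-1 changed by 1.81.

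Against QSCs the largest changes were those of Xist (5.99), Akr1c14 (3.96), Tmem45a (3.62) and F630111L10Rik (3.49) upward, and of Casq2 (-2.47), Hpse (-2.20), Abcc9 (-2.09) and Cxcl13 (-2.06) downward.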

How the results depend on the processing

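The number of genes called depended mainly on the threshold. With the adjusted p alone it was 4119 at 84 h, 2516 at 60 h, 7426 at 36 h, 5986 in QSCs, 2631 for the change from 60 h and 5470 for the change from QSCs. With a fold of at least 2 the numbers were 65, 69, 294, 128, 24 and 250. With the threshold kept, other arrays in the fit, both scalings, the filter on dim genes, the mean of probe sets, the intensity trend and leaving out single arrays moved none of the 6 numbers beyond 1.5 times, and without single arrays the 84 h number was 335 to 365. Replicate numbers did not pair the arrays (correlations of -0.005, 0.059 and 0.073 at 84 h, and 27 of 135 same-number pairs over 0.1 in the series). With a replicate block 331 genes were called at 84 h, 257 for the change from 60 h and 1307 for the change from QSCs.

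Of 184 genes with 2931 values under alternatives, 3 changed sign at 84 h, none of them called. Myf6 and Gbp2b lay near 0 in the main fit, while Cdkn1b stood at -0.20 (adjusted p = 0.0081 in limma) with the brighter of its 2 probe sets. Myf6 stood at -0.01 after quantile normalization, -0.01 without VCAM array 2 and -0.11 without YFP array 2, Cdkn1b at 0.04 with the mean of its probe sets, and Gbp2b, with -0.10 to 0.01 when single arrays were left out, at 0.01 without YFP array 1. With the threshold kept, 7 called genes lost the call under some alternative. These were Cxcr4 (also -0.58 with arrays centred on their medians), H2-Ab1, C1qc, Cxcl13, Mx1, Actn2 and Lyz1, the last also in the fit of the 6 arrays at 84 h (adjusted p = 0.2 in limma) and after quantile normalization (-0.57). With the threshold kept, 20 to 22 of 28 macrophage markers, 19 to 21 of 31 interferon response genes and 6 of 9 tenocyte markers were called. With a fold of at least 2 these were 7, 3 and 6, and with the adjusted p alone 26, 30 and 7. Medians of the 8 lists beyond 0.3 kept their sign under all alternatives with the threshold kept. With 3 arrays a group the precision is limited, and dim genes have compressed differences on this scale.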

Other observations

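Probe sets with no gene symbol or with several were kept out of the report. Tested on their own with the same fit, 426 of 13767 were called at 84 h (3.09%), 129 higher in VCAM cells and 297 lower. Of genes with a symbol 1.66% were called. No gene is given for these probe sets here.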
